A study of Anas platyrhynchos with 6 samples.

Results

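The circular RNAs described here were those spliced from 7 genes of the sarcomere and the myofibre, DMD, LDB3, LMO7, MYOM2, FHOD3, MLIP and PALLD. They were chosen by gene name. A row of the deposited table that carried an Ensembl identifier instead of a symbol was included when its gene description was the one of a named row. Listings with the same chromosome, end and strand, and starts 1 base apart, were treated as one back-splice junction with the larger read count in each library. By this rule the 7 genes had 71 junctions, called circles from here on, in 83 listings, of 14917 junctions in 16631 listings in the whole table. LDB3 had 16 circles, DMD had 13, MYOM2 and PALLD had 11 each, LMO7 had 8, MLIP had 7 and FHOD3 had 5.

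The breast muscle came from female embryos of the Shan Ma duck, 3 at embryonic day 13 (E13) and 3 at embryonic day 19 (E19), with no treatment. The labels describe the E13 myoblasts as undifferentiated and the E19 myoblasts as differentiated, so the comparison asks how the circular output of these genes differed between these stages of muscle formation. The study's methods state that RNA was depleted of ribosomal RNA and digested with RNase R, an enzyme that degrades linear RNA. Only reads across back-splice junctions are counted here. Such reads fix the ends of a circle, and the exons given between them are those of the listed annotation, not observed ones. Each library is taken as 1 embryo, although the labels do not say whether embryos were pooled.

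A circular RNA forms when the end of an exon is joined back to the start of the same or an earlier exon of the same transcript, and reads across that junction count the circle. The sarcomere is the contractile unit of striated muscle: actin filaments are anchored in Z discs, myosin filaments are crosslinked in M bands, and the dystrophin complex ties the cell's actin to the membrane and the matrix outside. LDB3 (also called ZASP or Cypher) is a PDZ and LIM domain protein of the Z disc, and PALLD (palladin) is a scaffold that binds actin and alpha-actinin. MYOM2 is a myomesin of the M band. FHOD3 is a formin that takes part in building actin filaments in heart muscle. DMD is dystrophin, LMO7 is a LIM domain protein that binds the nuclear envelope protein emerin, and MLIP binds lamin A/C. These roles are known from mammals.

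Back-splice reads summed to between 36506 and 69736 per library after joining, with the most in E19 replicate 2. That library was not the deepest in the mapped reads the study states (26108554, against 27857433 in E13 replicate 1). On the deposited scale (SRPBM, the read count of a junction divided by one constant per library), all circles together reached 13621, 9681 and 11603 SRPBM in E13 replicates 1 to 3 and 14167, 17238 and 11689 SRPBM in E19 replicates 1 to 3. The skeletal muscle label could hardly be checked in circular RNA, since only 2 of 8 defining muscle genes had any circle, at 0 SRPBM in every E13 library and 0.236 to 1.48 SRPBM at E19, and TTN, NEB, MYH1, MYH3, RYR1 and CACNA1S had none. Of the marker lists of other cells given here, 2 of 6 connective tissue genes had circles, at 0 SRPBM in every E13 library and 0 to 3.06 SRPBM at E19. Of 4 endothelial genes 2 had circles, at up to 0.697 SRPBM, and the 4 blood and the 4 fat genes had none.

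The 7 genes gave 1622 back-splice reads in all, 550 at E13 and 1072 at E19. Summed over the 71 circles, the level was 46.9, 37.7 and 50.6 SRPBM in E13 replicates 1 to 3 and 69.0, 119.1 and 72.1 SRPBM in E19 replicates 1 to 3. Every E19 library lay above every E13 library, and E19 replicate 2 lay far above the other two. As a share of all back-splice reads of the library, the 7 genes took 0.344, 0.389 and 0.437% at E13 and 0.487, 0.691 and 0.617% at E19, so the stages were apart on this measure as well. In bulk tissue, fewer cells of a type and less RNA per cell cannot be told apart.

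More of the circles were seen at the later stage. There were 19, 19 and 20 of the 71 circles with a read in E13 replicates 1 to 3 and 30, 36 and 31 in E19 replicates 1 to 3. As a share of all junctions seen in the library, these were 0.381, 0.447 and 0.435% at E13 and 0.583, 0.627 and 0.658% at E19. Of the 71 circles, 40 (56.3%) were seen only at E19, 10 (14.1%) only at E13 and 21 (29.6%) at both, against 38.8%, 30.5% and 30.6% of all 14917 junctions. Many of these circles rested on few reads: 13 had 1 read in all 6 libraries together, and 40 (56.3%) were seen in 1 library, against 62.0% of all junctions. The 9 circles found in all 6 libraries made up 12.7% of the 71, against 7.43% of all junctions.

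In shape the circles were much like the rest of the table. Of the 71, 66 were listed as exonic and 5 as intronic (7.04%, against 10.5% of all junctions). The exonic circles held a median of 3 exons (range 1 to 16), as did all exonic circles, and their median listed length was 458 bases, against 452 bases. MYOM2 differed from the other 6 genes in this respect, with a median of 6.5 exons over its 10 exonic circles and a median listed length of 729.5 bases. These medians rest on few reads: its 11 circles of both types had 22 reads in all, and 10 of them were seen in 1 library.

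The stage comparison used edgeR's quasi-likelihood test on the 19 circles that had 10 or more reads over the 6 libraries. Its p-values were adjusted over all 3608 junctions that passed this minimum (Benjamini-Hochberg). None of the 19 passed an adjusted p of 0.05, where 1.3% of all junctions tested did. The study's own thresholds were a log2 change of 1 or more in size and an unadjusted p of at most 0.05. By these 3 of the 19 passed and all 3 were higher at E19, against 6.13% of all junctions tested. These 3 were also the ones with an unadjusted p under 0.05, which 9.28% of all junctions had. The counts of circles at an adjusted p of 0.05 were 1 with DESeq2, 0 with edgeR's exact test and 0 with limma voom. The fitted change was above 0 for 16 of the 19 (58.1% of all junctions tested), and in 5 of the 19 every E19 library lay above every E13 library (9.62% of all). The median fitted log2 change was 1.01 over the 19 and 0.26 over all junctions tested. A tested circle with 0 reads at one stage has 10 or more at the other. A floor of 3 reads for the empty stage therefore could not move these medians and is no check on them. Because a circle could pass the minimum through its higher stage alone, these counts describe the 19 circles and not the 71.

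**Figure D1:**
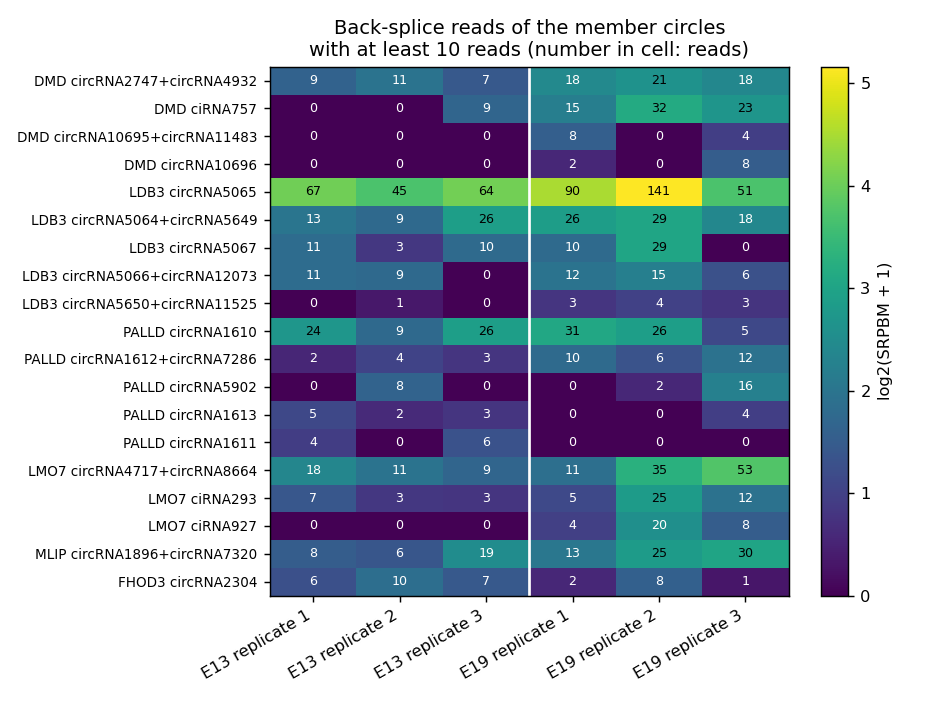
Back-splice reads of the 19 circles with at least 10 reads, 1 row per circle and 1 column per library; the number in each cell is the read count and the colour is log2(SRPBM + 1). LDB3 circRNA5065 is the brightest row, with 45 to 67 reads at E13 and 51 to 141 at E19, and LMO7 ciRNA927 has 0 reads in every E13 library.

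The same test on the reads summed per parental gene, adjusted over 1836 genes, called 2 of the 7 genes, DMD and LMO7, both higher at E19, where 2.72% of all genes tested were called and 1.8% were called higher. At the study's thresholds MLIP was added, so that 3 of the 7 passed, against 7.46% of all genes tested in this direction. The fitted change was above 0 for 6 of the 7 (58.8% of all), and its median was 1.29 over the 7 genes and 0.24 over all genes. MYOM2 met the minimum of 10 reads through E19 alone (2 reads at E13 and 20 at E19), so its direction was largely set by that minimum. When libraries were scaled to their total back-splice reads, the median of all genes moved to -0.04, and neither DMD (adjusted p = 0.081) nor LMO7 (adjusted p = 0.0504) was called. The changes below are on the SRPBM scale, where that median is 0.24.

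**Figure D2:**
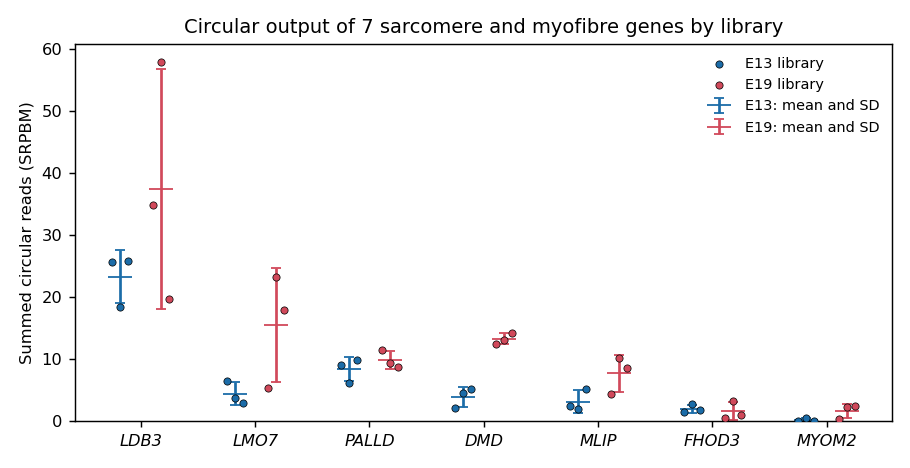
Summed circular level of each gene in SRPBM, with 1 point per library and the mean and SD of 3 libraries per stage. The E19 points of DMD lie between 12.4 and 14.1 SRPBM, above its E13 points of 2.09 to 5.16, while the stages overlap for the other 6 genes.

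A back-splice junction has the same width whatever the length of the circle, so the SRPBM levels of different genes are set side by side without dividing by length. Whether circle length affected how readily a junction was read was not tested. At E13 the order was LDB3 (23.2 SRPBM), PALLD (8.33), LMO7 (4.39), DMD (3.92), MLIP (3.11), FHOD3 (1.92) and MYOM2 (0.177). Only LDB3 and PALLD, and FHOD3 and MYOM2, were neighbours in this order whose library ranges did not overlap. At E19 the order was LDB3 (37.4 SRPBM), LMO7 (15.5), DMD (13.2), PALLD (9.85), MLIP (7.67), MYOM2 (1.61) and FHOD3 (1.55), and only DMD and PALLD, and MLIP and MYOM2, had ranges apart. PALLD was thus the second gene at E13 and the fourth at E19.

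DMD encodes dystrophin, the rod-like protein whose loss causes Duchenne muscular dystrophy. Its circles gave 9, 17 and 21 reads in E13 replicates 1 to 3 and 51, 53 and 60 reads in E19 replicates 1 to 3, or 3.92 ± 1.62 SRPBM at E13 and 13.2 ± 0.88 SRPBM at E19 (SD, n = 3 each). The stages were well apart, and DMD was the only one of the 7 genes whose sums did not overlap (10.4% of all genes tested were apart in this direction). The log2 change was 1.75 (SE 0.49) with an adjusted p of 0.017 by edgeR's quasi-likelihood test, and all 3 E19 libraries were higher. The call was lost without E13 replicate 1 (adjusted p = 0.164), E13 replicate 2 (0.097), E19 replicate 1 (0.083), E19 replicate 2 (0.089) or E19 replicate 3 (0.067), each time with a log2 change of at least 1.44.

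Most DMD reads came from an exonic circle near the start of the gene and from a long interval listed as intronic. The most abundant DMD circle, circRNA2747 (also listed as circRNA4932), held exons 3 and 4 and lay on chromosome 1 from 113926939 to 113934173 on the plus strand (no source used here names the genome build). It had 9, 11 and 7 reads at E13 and 18, 21 and 18 reads at E19, with the stages apart, and its own log2 change of 1.03 did not pass (adjusted p = 0.68). The second, ciRNA757, was listed as an intronic circle from 114174382 to 114202371, a span of 27990 bases, and had 0, 0 and 9 reads at E13 and 15, 32 and 23 reads at E19. Its log2 change of 2.88 (SE 0.88) met the study's thresholds (unadjusted p = 0.0015), but its adjusted p was 0.083. Another listing of this kind, ciRNA947, ended at the same base and was seen in E19 replicate 1 alone with 5 reads. The span of ciRNA757 takes in both ends of the exonic circle circRNA8578 (exons 24 to 27, 1 read). It is therefore not a single intron of the transcript listed for that circle. The intronic type of ciRNA757 is the deposited one, and what the circle holds was not tested here.

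Without the intronic listings, an alternative added after seeing the data, DMD had 9, 17 and 12 reads at E13 and 31, 21 and 37 reads at E19. The stages remained apart on exonic reads, but the log2 change was 1.17 and the gene was no longer called (adjusted p = 0.378).

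Other DMD circles were spread along exons 5 to 27 and mostly belonged to 1 stage. The circle of exons 5 and 6, circRNA10695 (also circRNA11483), had 8, 0 and 4 reads at E19 and 0 at E13. This is 3.92-fold higher at E19 if the 3 E13 libraries together are given a floor of 3 reads. That floor allows for counting error at E13 alone. The circle of exons 7 to 10, circRNA10696, had 2, 0 and 8 reads at E19 and 0 at E13, 3.26-fold higher on the same floor. A circle with 10 or more reads, all at E19, must give a raised fold on this floor, so these folds are no test of a change. E19 replicate 2 had no read of either, so their presence was not uniform within the stage, and neither passed the adjusted test. The circle of exons 21 to 27 (circRNA7288, also circRNA8577) went the other way, with 0, 4 and 2 reads at E13 and 0 at E19. In all, 6 DMD circles were seen at E13, 9 at E19 and 2 at both.

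LMO7 showed the other call, with less even libraries. Its circles gave 28, 14 and 12 reads at E13 and 22, 94 and 76 reads at E19, or 4.39 ± 1.87 SRPBM and 15.5 ± 9.19 SRPBM (SD, n = 3 each). E19 replicate 1, at 5.35 SRPBM, lay below E13 replicate 1, with 28 reads, so the stages overlapped. The log2 change was 1.81 (SE 0.46) with an adjusted p of 0.0063 by edgeR. The call was lost without E13 replicate 2 (adjusted p = 0.194), E13 replicate 3 (0.127), E19 replicate 2 (0.341) or E19 replicate 3 (0.052). It was also lost when the intronic listings were left out (adjusted p = 0.147), with exonic sums of 21, 11 and 9 reads at E13 and 13, 49 and 56 reads at E19.

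Of the LMO7 reads, most came from 3 circles at one end of the gene. The circle of exons 2 to 4, circRNA4717 (also circRNA8664), on chromosome 1 from 179377779 to 179400252 on the minus strand, had 18, 11 and 9 reads at E13 and 11, 35 and 53 reads at E19. It met the study's thresholds (log2 change 1.34, SE 0.60, unadjusted p = 0.028) while its adjusted p was 0.432. The listed intronic circle ciRNA927 (179397244 to 179410712) had no read at E13 and 4, 20 and 8 reads at E19. This was 10.4-fold higher with the floor of 3 reads given to E13, a direction fixed for any tested circle without E13 reads. The interval takes in 179400252, an end of the exon 2 to 4 circle, so it is not a single intron of the transcript listed for that circle. The intronic type of ciRNA927 is the deposited one, and what the circle holds was not tested here. Every E19 library lay above every E13 library for ciRNA927, and it was the third circle past the study's thresholds (unadjusted p = 0.0017, adjusted p = 0.091).

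A longer listing, ciRNA293, shared the coordinate 179410712 with ciRNA927 and had 7, 3 and 3 reads at E13 and 5, 25 and 12 reads at E19. Its other end was deposited as 179377778, the same deposited start as the exon 2 to 4 circle has under the name circRNA8664. The listed interval of 32935 bases thus contained that circle. In all 3 of these circles E19 replicate 1 had the fewest E19 reads, 11, 4 and 5, as in the gene sum. The remaining 5 LMO7 circles lay further along the gene, in exons 8 to 20 where exon numbers were listed. These numbers follow another listed transcript than those of the exon 2 to 4 circle. Each of the 5 circles had 1 to 9 reads. The most abundant of them, circRNA10777 (exons 13 to 20), had 1, 8 and 0 reads at E19 and none at E13.

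MLIP, the muscular LMNA-interacting protein, had 10, 7 and 21 reads at E13 and 18, 41 and 36 reads at E19, or 3.11 ± 1.79 and 7.67 ± 2.97 SRPBM (SD, n = 3 each). The stages overlapped through E13 replicate 3, which lay above E19 replicate 1. The gene sum met the study's thresholds (log2 change 1.29, SE 0.58, unadjusted p = 0.027) and missed the adjusted one (adjusted p = 0.32 by edgeR).

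MLIP made chiefly 1 small circle. The circle of exons 10 and 11, circRNA1896 (also circRNA7320), on chromosome 3 from 86076737 to 86083634 on the plus strand and listed at 171 bases, had 8, 6 and 19 reads at E13 and 13, 25 and 30 reads at E19. The same start was used by 2 longer circles that were seen only at E19, circRNA10277 (exons 10 to 12, with 2, 6 and 0 reads) and circRNA15032 (6 reads in E19 replicate 3). Together the 3 circles from this start held 86.5% of the gene's reads. The circle with the same number of reads as circRNA10277, circRNA13684, lay outside it and was seen only in E19 replicate 2 (8 reads). Only 2 MLIP circles were seen at E13, while all 7 were seen at E19.

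LDB3 had the highest circular output of the 7 genes at both stages. Its circles gave 110, 69 and 105 reads at E13 and 143, 234 and 83 reads at E19, or 23.2 ± 4.26 and 37.4 ± 19.3 SRPBM (SD, n = 3 each). E19 replicate 3 lay within the E13 range while E19 replicate 2 stood far above it. The log2 change of 0.68 (SE 0.36) did not pass (adjusted p = 0.41 by edgeR).

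Nearly all LDB3 reads came from circles closed at a single splice site. On chromosome 6, minus strand, the downstream exon end at 11840165 closed 6 of the 16 LDB3 circles, and these 6 held 94.6% of the gene's reads, between 90.4 and 96.5% in each library. They differed in where they began. The most abundant, circRNA5065, began at 11850574 and had 67, 45 and 64 reads at E13 and 90, 141 and 51 reads at E19. The second, circRNA5064 (also circRNA5649), held exons 5 to 7 and began at 11846907, with 13, 9 and 26 reads at E13 and 26, 29 and 18 reads at E19. The listed flanking introns show what lies between: circRNA5065 has 1 exon more, of 22 bases (11850553 to 11850574), and the intron of 3645 bases (11846908 to 11850552) separates it from the start of the shorter circle. Thus the circle with the extra small exon was the more abundant of the pair in every library.

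The other starts were used less. circRNA5067, from 11863509, had 11, 3 and 10 reads at E13 and 10, 29 and 0 reads at E19. circRNA5066 (also circRNA12073), from 11855597, had 11, 9 and 0 reads at E13 and 12, 15 and 6 reads at E19. Each of them had no read in 1 library, where circRNA5065 had 51 and 64 reads, and none of the LDB3 circles passed either threshold. A circle that did not use the shared site, circRNA5650 (also circRNA11525, exons 3 to 5), had 0, 1 and 0 reads at E13 and 3, 4 and 3 at E19. Its stages did not overlap (9.62% of all junctions tested were apart in this direction). The ratio of E19 to E13 was 9.79 with a 95% counting interval of 1.39 to 425 (exact binomial, counting error only). It met the minimum of 10 reads through E19, so a ratio above 1 was largely set by that minimum and is no test of a change. Over libraries its log2 change was 2.85 (SE 2.52, adjusted p = 0.85 by edgeR).

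**Figure D3:**
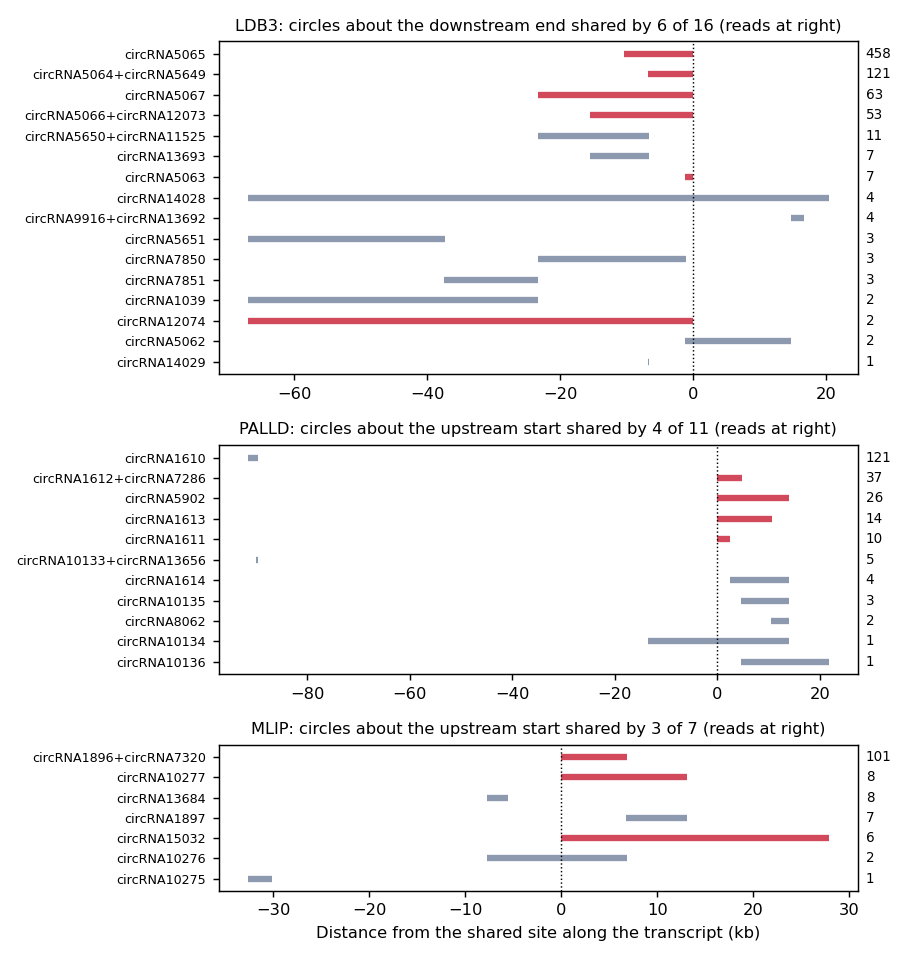
Exonic circles of LDB3, PALLD and MLIP as bars along the transcript, with the distance in kb from a splice site that several circles share, the number of reads over 6 libraries at the right, and circles that use that site in red. In LDB3 the 6 red circles end at the shared site and include the 4 most abundant of the 16; in PALLD the most abundant circle lies about 90 kb upstream of the shared start.

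The concentration on 1 site was compared with other genes. Among 339 genes with at least 5 circles and 100 reads, the most used exonic back-splice site held a median of 76.6% of the gene's reads, and 58 of the 339 had a larger share than the 94.6% of LDB3. MLIP stood at 86.5%, whereas PALLD (56.2%), LMO7 (55.7%) and DMD (39.8%) lay below the median. The low shares of LMO7 and DMD took in the reads of their intronic listings. Of the exonic reads alone, the exon 2 to 4 circle of LMO7 held 137 of 159 and the exon 3 and 4 circle of DMD held 84 of 127 (66.1%), beside a median of 80.6% for the most used site of the 339 genes.

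The summed level of PALLD differed between the stages by less than the spread of its libraries. Its circles gave 39, 23 and 40 reads at E13 and 47, 38 and 37 reads at E19, or 8.33 ± 1.97 and 9.85 ± 1.41 SRPBM (SD, n = 3 each). The log2 change was 0.24 (SE 0.46, adjusted p = 0.96 by edgeR), and it was -0.04 when libraries were scaled to their total back-splice reads.

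Behind this even sum lay 2 separate groups of PALLD circles on chromosome 4, plus strand. The most abundant, circRNA1610, held exons 8 and 9 (66915926 to 66917880) and had 24, 9 and 26 reads at E13 and 31, 26 and 5 reads at E19. The others, apart from a circle of exon 9 alone with 5 reads, lay in exons 10 to 20, and 4 of them began at the same base, 67007496, the start of exon 11. Of this group circRNA1612 (also circRNA7286, exons 11 to 14) had 2, 4 and 3 reads at E13 and 10, 6 and 12 at E19, with the stages apart, though its adjusted p was 0.81. circRNA5902 (exons 11 to 16) had 0, 8 and 0 reads at E13 and 0, 2 and 16 reads at E19, so it was concentrated in 1 library of each stage. circRNA1611 (exons 11 and 12) was seen only at E13, with 4, 0 and 6 reads, 3.40-fold lower at E19 with the floor of 3 reads given to the E19 libraries. The direction of this fold is fixed for any tested circle without E19 reads.

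The balance between the PALLD groups varied widely within each stage. Circles of exons 10 to 20 held 38.5, 60.9 and 35.0% of the gene's reads in E13 replicates 1 to 3 and 31.9, 21.1 and 86.5% in E19 replicates 1 to 3. E19 replicate 3 was the high library, with 32 of its 37 PALLD reads in exons 10 to 20, and E13 replicate 2 was the next. The fitted change of circRNA1610 was 0.07 and took the other sign in several alternatives, so no direction is given for it.

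MYOM2 had few circular reads, with 0, 2 and 0 at E13 and 1, 9 and 10 at E19. Its 11 circles were rarely repeated: 10 of them were seen in 1 library only, and 10 only at E19. None reached 10 reads, so the gene was tested only as a sum. The ratio of E19 to E13 was 9.79 with a 95% counting interval of 2.38 to 86.4, which covers counting error only, and the edgeR test over libraries did not call the gene (adjusted p = 0.57). The most abundant listings were ciRNA1437 and circRNA6034 with 4 reads each, those of ciRNA1437 all in E19 replicate 3. circRNA6034 (exons 22 to 28) was the one seen at both stages, with 2 reads in E13 replicate 2 and 1 read in each of E19 replicates 2 and 3. circRNA12486 (exons 20 to 26) had 3 reads in E19 replicate 2. The 2 largest circles held exons 14 to 25 (circRNA10273) and exons 2 to 17 (circRNA14274), each with 1 read.

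FHOD3 was the one gene with a fitted change below 0. Its circles gave 6, 10 and 7 reads at E13 and 2, 13 and 4 reads at E19, or 1.92 ± 0.653 and 1.55 ± 1.46 SRPBM (SD, n = 3 each). The log2 change of -0.31 (SE 1.15, adjusted p = 0.97 by edgeR) had a standard error larger than itself and turned to 0.11 without E19 replicate 1. All E13 reads came from 1 circle, circRNA2304 (exons 4 and 5, chromosome 2 from 88227996 to 88245912, plus strand), which had 6, 10 and 7 reads at E13 and 2, 8 and 1 reads at E19. The other 4 FHOD3 circles were seen at E19 only, with 1 to 3 reads each. Those with most reads were circRNA12644 (exons 22 to 24) with 3 and circRNA12643 (exons 13 to 17) with 2, both in E19 replicate 2. Equal to the latter was circRNA14384 (exons 2 and 3) with 2 reads in E19 replicate 3.

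Whether a gene kept to its main circle was asked separately, since summed reads do not show it. The share of LDB3 reads in circRNA5065 was 60.9, 65.2 and 61.0% at E13 and 62.9, 60.3 and 61.4% at E19. Its mean was 62.4 ± 2.47% at E13 and 61.5 ± 1.34% at E19 (SD, n = 3 each; exact permutation p = 0.7). For LMO7 the share of the exon 2 to 4 circle was 64.3, 78.6 and 75.0% at E13 and 50.0, 37.2 and 69.7% at E19, overlapping between the stages (exact permutation p = 0.2). For DMD the share of the exon 3 and 4 circle was 100, 64.7 and 33.3% at E13 and 35.3% and 39.6% in E19 replicates 1 and 2 and 18 of 60 reads in E19 replicate 3 (exact permutation p = 0.3). The 100% was 9 of 9 reads.

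The mean share was lower at E19 in all 6 genes, but none of these differences could be told from the spread of the libraries. MLIP went from 85.4 ± 5.25% to 72.2 ± 11.2%, PALLD from 55.2 ± 14.0% to 49.3 ± 31.0% and FHOD3 from 100 ± 0% to 62.2 ± 37.5% (SD, n = 3 each). The exact two-sided p-values ran from 0.2 to 1.0, the Benjamini-Hochberg values over the 6 genes from 0.6 to 1.0, and 3 embryos against 3 could not give a p below 0.1. For LDB3 the direction turned without E13 replicate 2 (a difference of 0.616 percentage points, E19 minus E13), and for PALLD without E19 replicate 3 (12.0 percentage points).

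**Figure D4:**
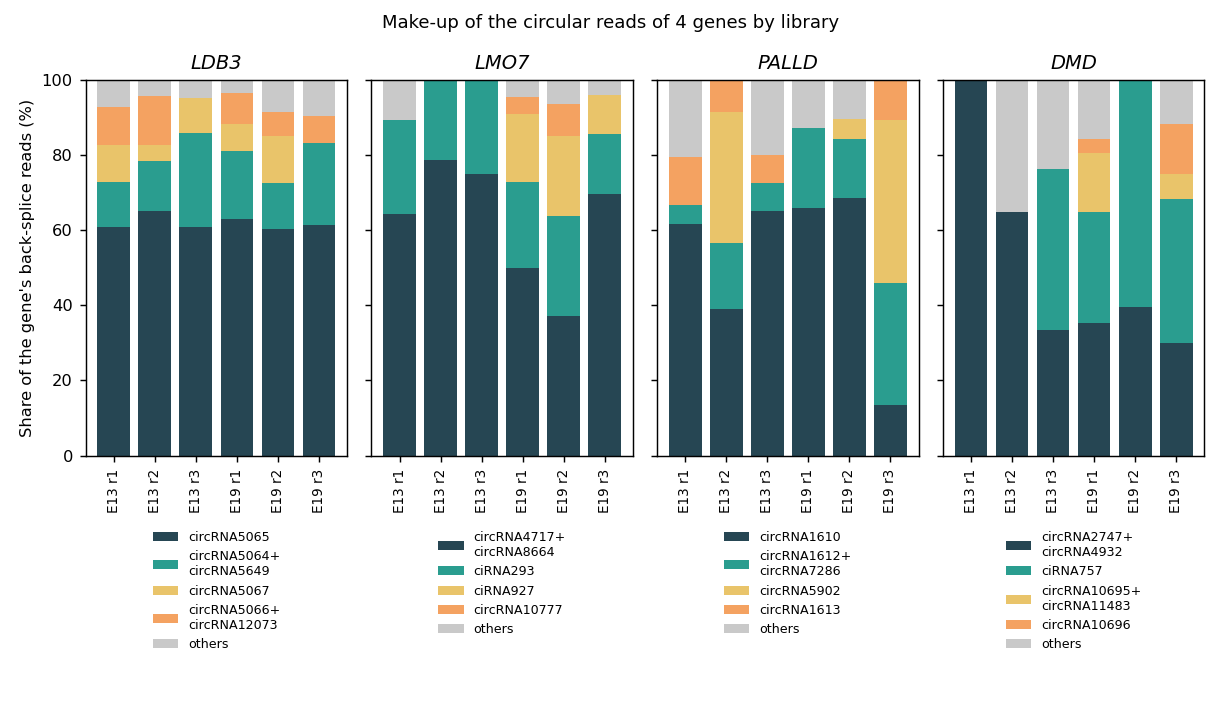
Share of the back-splice reads of LDB3, LMO7, PALLD and DMD taken by the 4 most abundant circles of each gene and by all others, in percent, with 1 bar per library (r is replicate). The dark segment of LDB3 stays between 60.3 and 65.2% in all 6 libraries, while that of PALLD is at 13.5% in E19 replicate 3.

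Other genes of the contractile and membrane apparatus were read from 5 lists of 161 genes, of which 57 had a circle and 34 had at least 10 reads. By edgeR's quasi-likelihood test over all genes, 2 of the 34 were called higher at E19 (1.8% of all genes tested were) and 0 lower. At an unadjusted p under 0.05, 6 were higher and 1 was lower, beside 12.5% of all genes tested in either direction. DESeq2 called 2 higher and 1 lower, edgeR's exact test and limma voom 1 higher and 0 lower each. The fitted change was above 0 for 21 of the 34 (58.8% of all genes tested), and its median was 0.67, beside 0.24 over all genes. Because a gene could pass the minimum of 10 reads through its higher stage alone, these counts describe the 34 genes only.

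Both called genes belonged to the list of the dystrophin complex and costamere, of whose 39 genes 19 had circles and 16 were tested. SGCZ, zeta-sarcoglycan, a membrane partner of dystrophin, had 0, 0 and 1 reads at E13 and 1, 21 and 35 reads at E19 (adjusted p = 0.002). E19 replicate 1 did not differ from E13 replicate 3, and the call was lost without E13 replicate 1 (adjusted p = 0.078), E13 replicate 2 (0.112), E19 replicate 2 (0.069) or E19 replicate 3 (0.229), with limma voom (0.101) and with exonic circles only (0.355). ANK2, an ankyrin that links membrane proteins to the spectrin skeleton, had 43 to 66 reads at E13 and 113 to 165 reads at E19. Every E19 library was higher (10.4% of all genes tested were apart in this direction). Its log2 change was 1.26 (SE 0.38, adjusted p = 0.035), and the adjusted p was between 0.061 and 0.287 when any 1 library was left out. The call was lost in 14 of 19 alternatives. Of the 16 genes, 8 had a fitted change below 0. SNTG1, a syntrophin, named here after its values were seen, had 70, 54 and 66 reads at E13 and 16, 29 and 32 reads at E19. Its log2 change was -1.33 (SE 0.44, unadjusted p = 0.0026) and its adjusted p was 0.084. It was called lower with DESeq2 (adjusted p = 0.038), TMM (0.016) and total back-splice reads (0.0087), and its adjusted p ran up to 0.445 over the alternatives.

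The other 4 lists had no gene past the adjusted test, and their members with most reads are given as values. Among 35 Z disc and actin crosslinking genes (6 tested), SVIL (supervillin) had 55 reads at E13 and 99 at E19, and LIMCH1 had 43 and 110. Among 35 thick filament and M band genes (4 tested), MYBPC1, the slow myosin binding protein C, had 0 reads at E13 and 22 at E19. This was 7.18-fold higher with the floor of 3 reads given to E13, a direction fixed for any tested gene without E13 reads. In the same list MYH10, a non-muscle myosin, had 18 and 10. Among 32 thin filament and actin assembly genes (5 tested), CAPZB, the beta subunit of capping protein, had 601 and 550 reads and DAAM2, a formin, had 102 and 50. Among 20 intermediate filament and nuclear envelope genes (3 tested), TMPO had 122 and 158 reads and SUN1 had 3 and 10. In these lists 2 Z disc genes (LIMCH1 and SYNPO2L) and 1 thick filament gene (MYBPC1) had an unadjusted p under 0.05 by edgeR's quasi-likelihood test. Of all genes tested 12.5% did. No thin filament or nuclear envelope gene did. All were higher at E19, but for SYNPO2L (0 reads at E13 and 18 at E19) and MYBPC1 this direction was fixed, since neither had an E13 read. MYBPC1 had 12, 10 and 0 reads in E19 replicates 1 to 3. DESeq2, the exact test and limma voom also called none at an adjusted p of 0.05.

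Of the connective tissue markers, COL1A2, a collagen of connective tissue, had 0 reads at E13 and 3, 0 and 13 reads at E19 and was not called. Its part in the results above was not tested.

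The genes whose circular sums were most like the summed level of the 7 genes over the 6 libraries were SH3PXD2A (Pearson r = 0.98 on log2(SRPBM + 1)), NAA16 (r = 0.98) and ENSAPLG00000008538 (r = 0.97), which has no symbol in the files. They were taken from 454 genes with at least 100 reads, whose median r was 0.376. SH3PXD2A had 9.75, 6.10 and 10.1 SRPBM at E13 and 12.2, 28.7 and 13.7 SRPBM at E19. All these points share their libraries, and the summed SRPBM of all circles followed the 7 genes too (r = 0.82, 6 libraries).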

How the data were processed

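Circular RNA of 6 breast muscle samples was analysed, 3 per stage. Per the labels and the study's methods, the authors removed adaptors with Cutadapt and used Bowtie and TopHat2 for mapping, TopHat-Fusion for back-splice reads, and CIRCExplorer2 and CIRI for calling circles. No source used here names tool versions or the genome build. The authors deposited counts of back-splice reads per junction and library, a signal they call SRPBM, and the length of each circle. For circles of 1 exon listed by exon number that length is 1 base more than the interval. LDB3 circRNA5065 and circRNA5064 were listed at 434 and 411 bases, although the extra exon has 22. Listed lengths of circles with more exons are thus approximate too. Columns of the authors' own comparison were not used.

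From these files 1714 double listings were joined, and 1245 of 2099 Ensembl identifiers were joined to a symbol by gene description. Coordinates of exonic circles are given from 1, and those of listings called intronic are given as deposited. Exon numbers follow the transcript listed for each circle, which can differ between circles of the same gene. The constant that turns counts into SRPBM served as library size. Reads per junction and per gene (at least 10 over the libraries) were tested with edgeR 4.0.16 in R 4.3.3, E19 against E13, with Benjamini-Hochberg adjustment at 0.05. Alternatives used DESeq2 1.42.0, limma 3.58.1, other library sizes, filters and joinings, and left out each library. Shares of a gene's reads were compared by exact permutation tests. The script was tested on simulated data: for parental genes it found 27 of 62 genes changed 8-fold, 14 of 60 changed 4-fold and 1 of 56 changed 2-fold. For junctions it found 9 of 61, 3 of 60 and 0 of 49. It also called 3 of 1429 unchanged genes and 3 of 2777 unchanged junctions. The circles described in full were the 3 with most reads per gene, those past either threshold, and those with at least 10 reads all at one stage. Other circles were named after their values were seen, where a count or a contrast rested on them. The genes, lists and tests were chosen with earlier results of these data known. Replicates are separate libraries, and p-values measure the spread between them. Intervals cover counting error only. The floor of 3 reads allows for counting error in the stage without reads alone, so the folds it gives are not lower limits. A tested circle or gene with no read at one stage must show a fold on that floor, so these folds test no change. One further list of cell type markers is not reported here.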

Additional observations from a re-analysis of the deposited data

How the results depend on the processing

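In 18 alternatives the calls on these genes were less stable than their directions. Of the 2 called gene sums, 0 remained with total back-splice reads and with DESeq2, 1 with edgeR's exact test, limma voom, no filter, a minimum of 30 reads and the replicate block, 0 to 1 when 1 library was left out, and 0 with exonic circles only, which was added after seeing the data. The log2 change of DMD stayed between 1.17 and 2.00 and that of LMO7 between 1.40 and 2.22; their adjusted p with DESeq2 was 0.156 and 0.181 (highest over all alternatives 0.378 and 0.341). Of the circles, where none was called, 1 was called with DESeq2 (LMO7 ciRNA927, adjusted p = 0.035; any other tool's was above 0.05), 1 with the replicate block (DMD ciRNA757, adjusted p = 0.046), 1 with listings not joined (LMO7 circRNA8664, adjusted p = 0.034) and 0 to 1 when 1 library was left out (DMD ciRNA757 without E13 replicate 3, adjusted p = 0.0032). The 3 circles past the study's thresholds became 6 with listings not joined and 0 to 4 when 1 library was left out. Same-numbered libraries did not deviate together, with correlations of deviations from -0.048 to -0.037 over junctions and from -0.080 to -0.058 over genes. Between differently numbered libraries they ran from 0.0080 to 0.029 and from 0.015 to 0.044. With so few libraries per stage, this cannot exclude a pairing by number. The block also changed the call of LMO7 (adjusted p = 0.065) and of ANK2 (0.089).

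Directions that turned all belonged to results that were not called: PALLD as a sum with total back-splice reads (-0.036); FHOD3 without E19 replicate 1 (0.11; from -1.39 to 0.11 without 1 library); LDB3 circRNA5067 with limma voom (-0.62), the replicate block (-0.055) and without E19 replicate 2 (-0.67; up to 1.29 without another); PALLD circRNA5902 without E19 replicate 3 (-1.40; up to 5.60 without another); and PALLD circRNA1610 with TMM (-0.12), total back-splice reads (-0.26), DESeq2 (-0.15), limma voom (-0.21), the block (-0.071) and without E13 replicate 2 (-0.25), E19 replicate 1 (-0.34) or E19 replicate 2 (-0.14; up to 0.54 without another). The share of the main circle turned for LDB3 without E13 replicate 2 (from -1.54 to 0.616 percentage points without 1 library) and for PALLD without E19 replicate 3 (from -15.5 to 12.0). The causes were not tested. Over the whole table, the 47 junctions called became 73 with DESeq2, 23 with the exact test, 12 with a minimum of 30 reads and 2 to 29 without 1 library. The 50 genes called became 32 with the exact test, 33 with limma voom, 26 with a minimum of 30 reads, 29 with the block and 15 to 44 without 1 library. Total back-splice reads turned the split of genes from 33 higher and 17 lower to 19 and 26, and of junctions from 31 and 16 to 14 and 18. Depth limits most circles: 52 of the 71 had fewer than 10 reads and were not tested.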

Other observations

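The double listing of junctions bore directly on these genes. Of the 71 circles, 12 were listed in pairs, and in 9 of the pairs at least 1 library had reads under only one of the names. Over the 12 pairs, 33 library values stood under one name and 15 under both, of which 10 were equal. The LMO7 circle of exons 2 to 4 is the clearest case. Under the Ensembl identifier (circRNA4717) it had 18, 11 and 0 reads at E13 and none at E19, and under the symbol (circRNA8664) it had 0, 0 and 9 reads at E13 and 11, 35 and 53 reads at E19. Fitted separately, circRNA8664 was called higher at E19 by edgeR (log2 change 3.37, adjusted p = 0.034), while circRNA4717 had reads at E13 alone. Joined, the same junction had a log2 change of 1.34 and was not called. The MLIP circle of exons 10 and 11 was divided in the same manner, with 0, 6 and 19 reads at E13 and none at E19 under circRNA7320, and 8, 0 and 0 reads at E13 and 13, 25 and 30 reads at E19 under circRNA1896. Neither MLIP listing was called on its own (adjusted p = 0.347 and 0.142). At the study's thresholds, however, the listings of each of these junctions passed in opposite directions. For MLIP, circRNA1896 was higher at E19 (unadjusted p = 0.0031 by edgeR) and circRNA7320 lower (0.013). For LMO7, circRNA8664 was higher (0.0003) and circRNA4717 lower (0.0070). Gene sums were not open to this division, since both names were joined to one gene.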
